A study of Mus musculus with 6 samples.

Results

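Extracellular adenosine handling was described in CD11b+ bone marrow cells through 5 genes, Nt5e, Entpd1, Ada, Adora2a and Adora2b, of the 32285 genes in the count matrices. They were found by symbol. Nt5e was chosen by its difference between mandibular- and femur-derived libraries in cluster 4 of these same data, so its values in that cluster are given as a description with no test. The other 4 genes were added for their places in the same pathway. CD11b+ cells had been isolated with magnetic beads from the marrow of C57Bl/6J mice at 2 months of age, with no treatment, and 3 femur and 3 mandible samples were captured for 3′ single-cell RNA sequencing. The library Femur 1 came from female mice, and the libraries Femur 2, Femur 3 and Mandible 1 to Mandible 3 came from males. The labels name femurs and tibiae as the source of the femur samples while the study's methods name femurs alone, and the number of mice behind a library was not given. Apart from the sex of Femur 1, nothing states that the libraries of a site came from separate animals, so the adjusted p-values below reflect the spread between 3 and 3 libraries, which may be technical.

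ATP that leaves stressed or activated cells is a danger signal, and a short chain of enzymes on the cell surface turns it into adenosine, which quiets many immune cells. CD39, the product of Entpd1, removes phosphates from ATP and ADP to give AMP, and CD73, the product of Nt5e, removes the last phosphate to give adenosine. Adenosine deaminase, the product of Ada, converts adenosine to inosine, and Adora2a and Adora2b encode adenosine receptors that raise cyclic AMP. In marrow, neutrophils mature from dividing precursors through an immature stage rich in granule protein transcripts to mature cells ready to leave.

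On the mouse build mm10 with GENCODE M21 annotation, Nt5e (ENSMUSG00000032420) lies at chr9:88327197-88372092 on the plus strand and Entpd1 (ENSMUSG00000048120) at chr19:40612366-40741602 on the plus strand. Ada (ENSMUSG00000017697) lies at chr2:163726584-163750239 on the minus strand, Adora2a (ENSMUSG00000020178) at chr10:75316877-75334784 on the plus strand and Adora2b (ENSMUSG00000018500) at chr11:62248984-62266453 on the plus strand. Entpd1 overlapped 3 other annotated genes, none of them in its exons, and the only 1 of those among the counted genes, AC166063.1, had 36 unique molecular identifiers (UMIs) in the whole series. A UMI marks a single captured transcript end, so levels do not scale with transcript length, although capture may differ between genes.

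The 6 libraries held 69776 kept cells and between 82962160 and 244946998 UMIs each, with medians of 6924 to 9158 UMIs per cell. Femur 3 had the most UMIs in all and Femur 1 the highest median per cell, and the authors' filters had removed 18.5% of the barcodes of Femur 1 against 1.88 to 5.14% in the other 5. Any pair of libraries shared 15 to 70 cell barcodes, 0.193 to 0.651% of the smaller library. Itgam, which encodes CD11b, was found in 89.2 to 95.3% of the cells of each library. The deposited reference labels called 63594 cells neutrophils (91.1%), 3777 monocytes, 890 B cells and 492 macrophages. The 9 deposited clusters at resolution 0.1 were used as given. Cluster 4 led in transcripts of neutrophil precursors (Elane, Mpo, Prtn3, Ctsg, Fcnb), clusters 0 and 4 were rich in immature neutrophil transcripts (Ltf, Camp, Ngp, Lcn2, Cebpe) and clusters 1, 2 and 3 in mature neutrophil transcripts (Csf3r, Cxcr2, Il1b, Mmp8, Retnlg). Cluster 5 held most monocyte-labelled cells, 3734 of 3777, and also 2529 neutrophil-labelled cells. Cluster 6 held B lineage cells, cluster 7 was led by mitochondrial transcripts, and cluster 8 was led by haemoglobin transcripts.

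Nt5e, the adenosine-producing step, was a transcript of neutrophil-labelled cells, lowest in the precursor-rich cluster 4 and highest in cluster 3. That cluster was rich in mature neutrophil transcripts and kept more immature ones than clusters 1 and 2. Levels are given in CPM, the UMIs of a gene per 1000000 UMIs summed over the cells of a library and cluster. The immature neutrophil genes summed to 22831 CPM at the femur and 26948 CPM at the mandible in cluster 3 (means of 3 libraries). They summed to 10061 and 17833 CPM in cluster 2 and to 4918 and 10072 CPM in cluster 1. In cluster 3, Nt5e stood at 183, 130 and 82.1 CPM in Femur 1 to Femur 3 and at 266, 131 and 149 CPM in Mandible 1 to Mandible 3, a mean of 157 ± 62.8 (SD, n = 6). Cluster 3 was the highest cluster in all 6 libraries, at 9.28 to 25.4 times the level of cluster 4 in the same library. Cluster 4 was the lowest in 5 of 6, and in Femur 2 cluster 8 was lower, with 0 UMIs in 15 cells. The next means were 102 ± 46.7 CPM in cluster 2, 76.3 ± 36.8 in cluster 1, 74.1 ± 43.2 in cluster 7 and 71.4 ± 29.5 in cluster 0. Lower means of 40.1 ± 27.0 CPM in cluster 8, 21.5 ± 7.64 in cluster 5, 17.8 ± 9.84 in cluster 6 and 10.8 ± 3.65 in cluster 4 closed the order. The ranges over the 6 libraries overlapped for every pair of neighbours in this order. Within libraries, cluster 3 exceeded cluster 2 and cluster 2 exceeded cluster 1 in 6 of 6, and cluster 1 exceeded cluster 0 in 4 of 6. The clusters were made from these same cells, so their order was not tested.

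**Figure D1:**
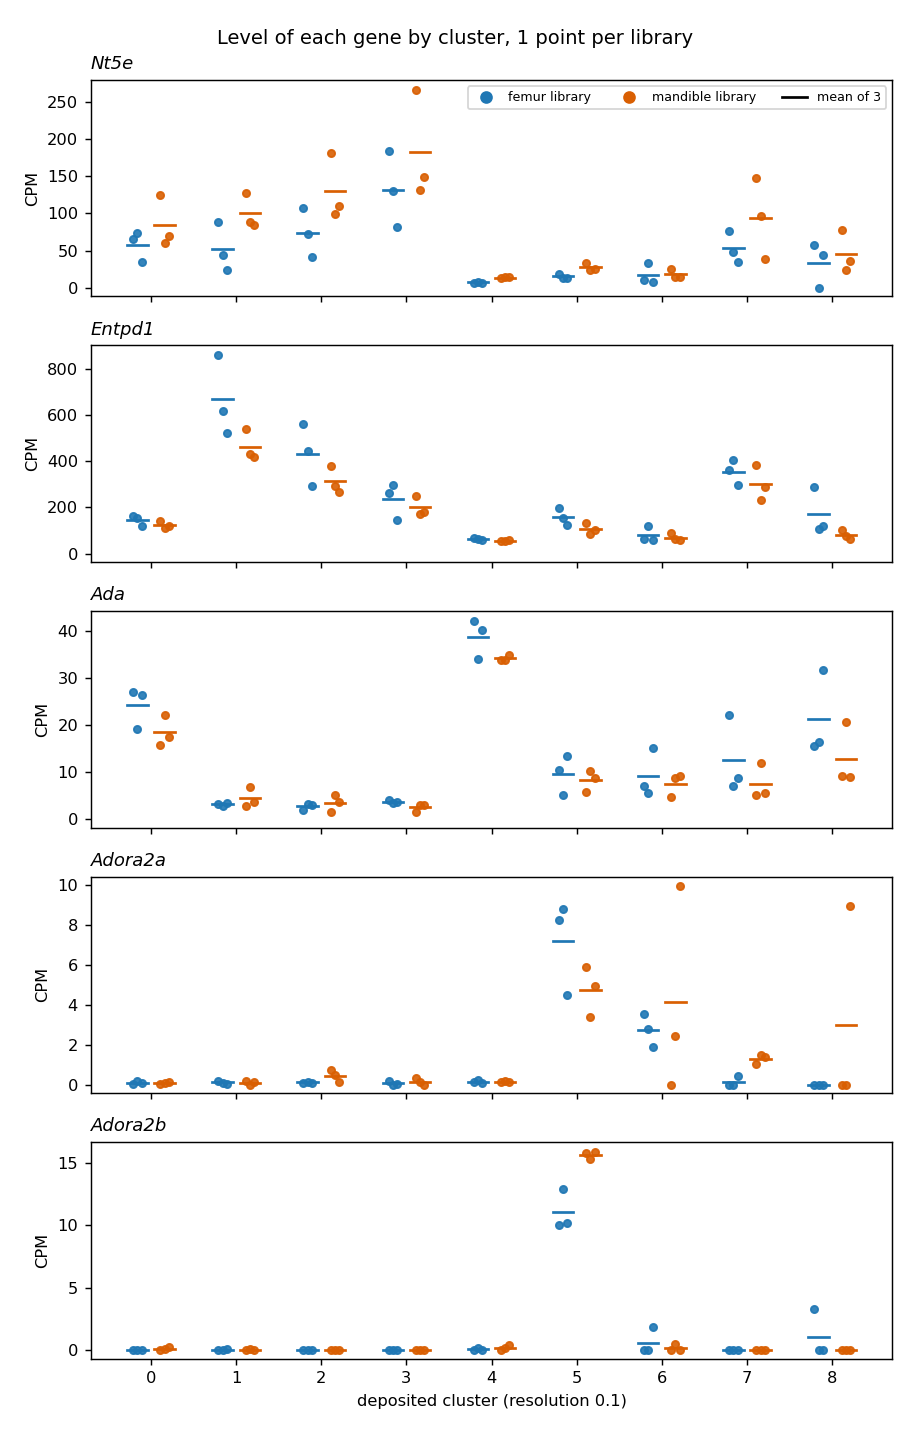
Level in CPM of Nt5e, Entpd1, Ada, Adora2a and Adora2b (linear axes starting at 0) in the 9 deposited clusters, with 1 point per library, femur in blue and mandible in orange, and bars at the mean of 3 libraries. Nt5e peaks in cluster 3, Entpd1 in cluster 1, Ada in cluster 4, and both receptors in cluster 5.

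Of 39174 Nt5e UMIs, 39054 fell in cells labelled neutrophils, and 16938 of those 63594 cells (26.6%) carried at least 1 UMI. The share was 1.32% in monocyte-labelled cells (50 of 3777) and 1.01% in B cell-labelled cells (9 of 890), and no UMI was seen in 177 cells labelled dendritic cells. The labels were made from the same transcripts, so these shares set no limit on free RNA or mislabelled cells, whose part was not tested. In cluster 6, 30.4% of the 138 neutrophil-labelled cells were positive, at a median of 10529.5 UMIs against 3894.5 in its B cell-labelled cells. By cluster, the share of cells with an Nt5e UMI was 45.6% in cluster 3, 34.8% in cluster 0, 25.9% in cluster 2, 13.9% in cluster 1, 12.3% in cluster 4 and 10.6% in cluster 5. These shares were counted at each cluster's own depth, with a median of 21561 UMIs per cell in cluster 4, 11168 in cluster 0 and 7000 in cluster 3. They are therefore not a comparison at equal depth. Counts per cell were low, with 1 UMI in 50.4% of the 17030 positive cells and 31 UMIs at most. Clusters 0, 3, 2 and 1 held 38.1, 22.6, 15.0 and 13.6% of all Nt5e UMIs.

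Of the 20 finer deposited clusters (resolution 0.5), 4 had most of their cells in cluster 0, and they differed in Nt5e. Finer cluster 11, led by the mitosis genes Cdc20, Aspm and Cenpf, with 59.1% of its cells in cluster 0 and 710 cells in cluster 4, had a mean of 10.1 CPM (6.29 to 14.7 over libraries), and finer cluster 4, led by Zmpste24 and Orm1, had 25.9 CPM (15.7 to 40.9). Finer cluster 7 followed at 75.0 CPM (34.3 to 134), and finer cluster 3, led by Cd55, Chil5 and the neutrophil collagenase gene Mmp8, reached 129 CPM (71.6 to 208). The ranges of finer clusters 11 and 3 did not overlap. Finer cluster 2, which made up nearly all of cluster 3, had the highest mean at 156 CPM (82.5 to 267), and Nt5e itself was among the genes that led it, beside Prok2, Retnlg, Gpr27 and Mmp8. The lowest mean, 5.63 CPM (4.54 to 7.94), belonged to finer cluster 10, led by the primary granule genes Elane, Mpo, Prtn3 and Ctsg. Among mature cells, finer cluster 0, led by Clec4n, Csf1 and the interferon-induced genes Ifit3 and Ifit1, stood at 57.6 CPM (17.5 to 101) and finer cluster 1 at 91.5 CPM (29.6 to 146), with overlapping ranges.

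**Figure D2:**
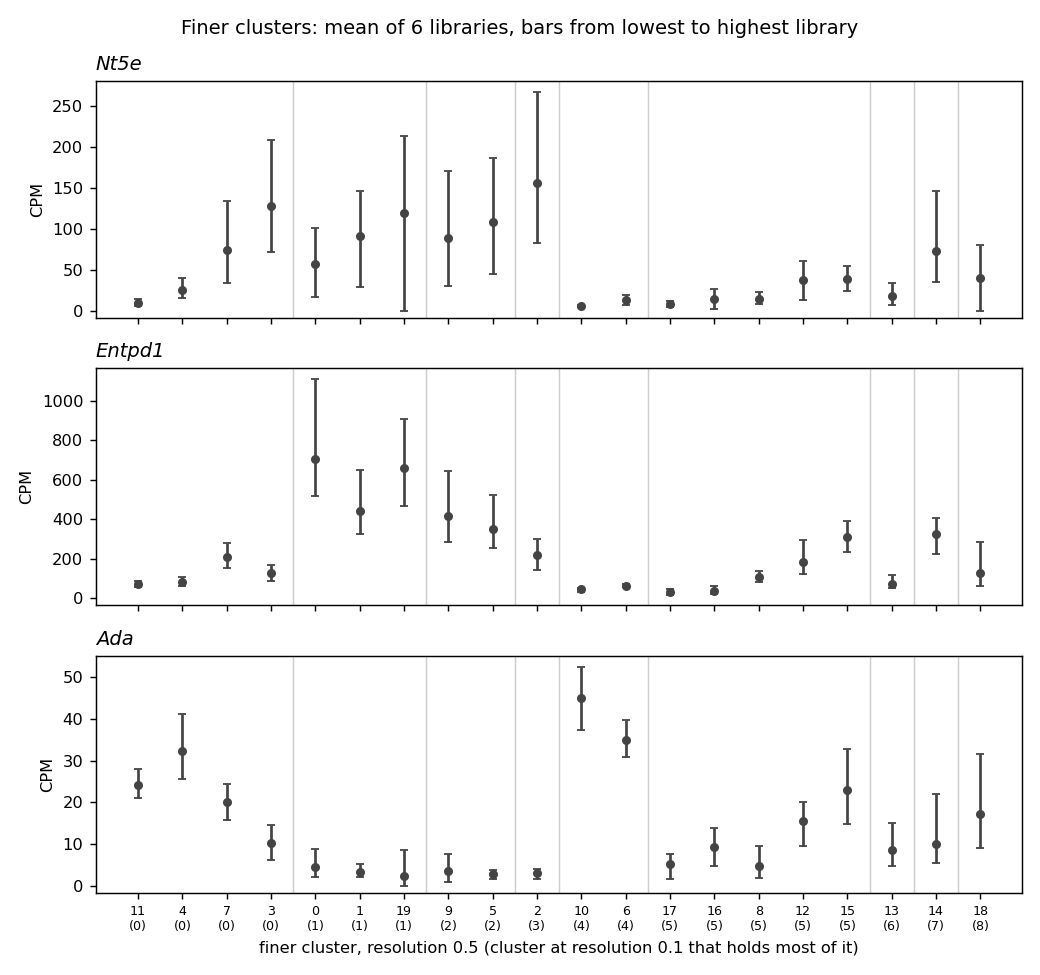
Mean level in CPM of Nt5e, Entpd1 and Ada over 6 libraries in the 20 finer clusters (bars from the lowest to the highest library), ordered within the cluster of resolution 0.1 that holds most of their cells. Ada is highest in finer clusters 10, 6 and 4, where Nt5e is low, and Nt5e is highest in finer clusters 2 and 3.

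The genes whose pattern was most like that of Nt5e were found by the Pearson correlation of log2(CPM + 1) over the 54 sums of a library and a cluster, among 8918 genes with a mean of at least 5 CPM. The sums of a library share its depth, so the values are a description. The top 5 were Slc27a4 (r = 0.901), a fatty acid transporter, Stim2 (0.901), a calcium sensor of the endoplasmic reticulum, Cdk11b (0.890), a kinase, Mmp25 (0.888), a membrane-anchored metalloproteinase of neutrophils, and Fosl1 (0.886), an AP-1 subunit. With the neighbouring steps of the pathway, Nt5e had r = 0.629 for Entpd1 and r = -0.554 for Ada.

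In cluster 4, the comparison by which Nt5e was chosen, all 3 mandible libraries lay above all 3 femur libraries. Nt5e stood at 7.21, 7.96 and 7.17 CPM in Femur 1 to Femur 3 and at 13.8, 14.1 and 14.4 CPM in Mandible 1 to Mandible 3. The fitted log2 fold change, mandible over femur, was 0.95 ± 0.11 (SE). This rested on 1651 UMIs, between 163 and 493 per library, in 7621 cells. In a sum over cells, more Nt5e-positive cells and more Nt5e RNA per positive cell cannot be told apart, so both were counted. The share of positive cells was 8.70, 10.7 and 10.9% in Femur 1 to Femur 3 and 13.97, 15.5 and 18.6% in Mandible 1 to Mandible 3. The 95% exact binomial intervals of single libraries ran from 7.13 to 10.5% in Femur 1 and from 11.4 to 16.9% in Mandible 1, and they cover counting error only. The UMIs per positive cell, 1.69 ± 0.171 at the femur and 2.00 ± 0.249 at the mandible (SD, n = 3), overlapped between the sites, and the single cell with the most Nt5e held at most 10.9% of a library's Nt5e UMIs. Males alone, without Femur 1, gave a log2 fold change of 0.90 ± 0.11, and leaving out any other library gave 0.92 to 0.99.

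Nt5e was also summed over parts of cluster 4. In the 4848 cells of cluster 4 that belonged to finer cluster 6, led by replication-dependent histone genes, Nt5e stood at 8.77, 9.58 and 7.57 CPM in the femur libraries and at 19.7, 17.4 and 17.02 CPM in the mandible libraries, which did not overlap. In the 2059 cells of finer cluster 10, the Elane and Mpo cells, the values were 4.83, 4.42 and 5.45 CPM at the femur and 4.57, 5.11 and 7.18 CPM at the mandible, which overlapped. In the 710 cells of finer cluster 11, the values of 4.87, 4.76 and 9.13 CPM at the femur and 4.90, 11.6 and 12.3 CPM at the mandible also overlapped. These differences between finer clusters were not tested, because they belong to the contrast that chose Nt5e. Finer cluster 6 took 62.1 ± 4.87% of cluster 4 at the femur and 63.7 ± 3.22% at the mandible, and finer cluster 10 took 28.9 ± 3.92% and 25.2 ± 2.56% (SD, n = 3), with overlap in both. Finer cluster 11 took 8.97 ± 1.14% and 10.95 ± 0.721%, without overlap. By deposited cell cycle phase, the means were 9.06 ± 0.984 CPM at the femur against 15.0 ± 1.47 at the mandible in S phase, and 6.50 ± 0.887 against 11.8 ± 1.22 in G2M phase, with no overlap in either. The 88 cells of cluster 4 in G1 phase had 0, 0 and 16.5 CPM at the femur and 107, 31.5 and 31.4 CPM at the mandible, from 6 to 28 cells per library. In neutrophil-labelled cells alone, which made up 96.4 ± 1.79% of cluster 4 at the femur and 92.1 ± 1.87% at the mandible, Nt5e stood at 7.64 ± 0.450 and 15.0 ± 0.504 CPM.

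**Figure D3:**
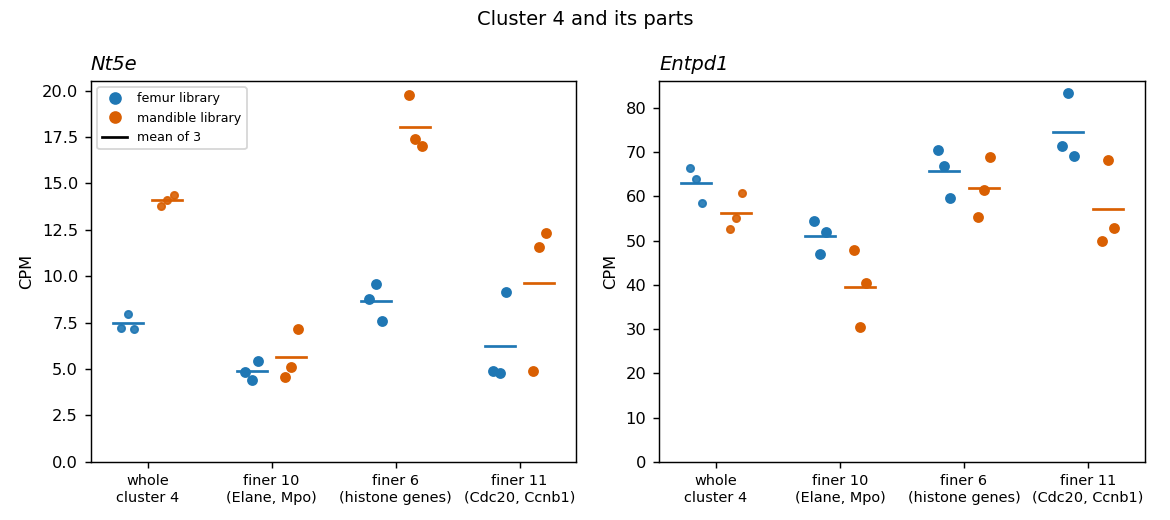
Level in CPM of Nt5e (left) and Entpd1 (right) in cluster 4 and in the parts of it that belong to finer clusters 10, 6 and 11, with 1 point per library, femur in blue and mandible in orange, and bars at the mean of 3. For Nt5e the sites are apart in the whole cluster and in finer cluster 6, and they overlap in finer clusters 10 and 11.

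Transcripts of other cell types also differed between the sites in cluster 4, and their part in the Nt5e difference was not tested. The summed level of 6 ameloblast genes was 0.0308 CPM at the femur (0 to 0.0488 over libraries) and 8.53 CPM at the mandible (7.20 to 10.1), with 5 of 6 genes higher and Amtn at 0. The 9 bone or stromal genes summed to 4.11 CPM (3.37 to 5.12) and 9.16 CPM (7.55 to 11.5), with 6 of 9 higher at the mandible. The 7 T or NK cell genes summed to 87.5 CPM (80.5 to 94.7) and 124 CPM (105 to 137), with 7 of 7 higher at the mandible. Nkg7, which is in this list, was also among the genes that led finer cluster 10, the Elane and Mpo cells. The sum therefore does not mark T or NK cells alone. The 7 B cell genes summed to 5.39 CPM (2.30 to 10.6) and 16.8 CPM (9.95 to 22.5), with 7 of 7 higher, the 8 basophil, mast cell or eosinophil genes to 6.46 CPM (5.62 to 7.57) and 81.7 CPM (5.56 to 153), with 7 of 8 higher, and the 6 erythroid genes to 20.1 CPM (11.2 to 33.1) and 105 CPM (17.5 to 195), with 5 of 6 higher, all 3 lists with overlap. The 5 monocyte genes summed to 808 CPM (797 to 820) and 775 CPM (747 to 790), lower at the mandible in sum although 3 of 5 genes were higher there. Mature neutrophil genes, which like Nt5e were highest in cluster 3, summed to 1622 CPM (936 to 2330) and 2314 CPM (1745 to 2841), which overlapped. The odontoblast genes Dspp and Dmp1 were at 0. A tooth, bone or stromal UMI was present in 19.2% of the Nt5e-positive and 10.3% of the Nt5e-negative cells of cluster 4. These shares pool the cells of both sites. The Nt5e-positive cells were also deeper, with library medians of 24576 to 31345 UMIs against 17042 to 23021. The parts of site and depth in the shares were not tested. Without any cell carrying a tooth, bone or stromal UMI, the log2 fold change of Nt5e was 0.76 ± 0.13, and without the 8% of cells with the highest doublet score it was 0.86 ± 0.22.

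In 6 of the 7 other clusters in which Nt5e was fitted, its change was also positive, with a larger SE. All clusters come from the same 6 libraries, so they are not independent repeats of the comparison. Apart from cluster 4, Nt5e passed the low-count filter in 7 clusters, and none reached a false discovery rate of 0.05 in the edgeR fit, while 4 had an unadjusted p under 0.05. The share of all tested genes called by that rule was 0.0163% in cluster 0, 0.0842% in cluster 1, 0.0416% in cluster 2, 0.0108% in cluster 3, 0.0245% in cluster 4 and 0.0842% in cluster 7, and it was 0% in clusters 5, 6 and 8 and over all cells. Nt5e in cluster 1 stood at 88.0, 44.9 and 23.8 CPM in the femur libraries and at 128, 88.7 and 84.6 CPM in the mandible libraries, which overlapped. The fold change on the log2 scale was 1.09 ± 0.40 there (edgeR adjusted p = 0.274). In cluster 2 the change was 0.89 ± 0.30 (edgeR adjusted p = 0.269), in cluster 7 it was 0.98 ± 0.40 (0.813), in cluster 0 it was 0.62 ± 0.29 (0.768) and in cluster 3 it was 0.49 ± 0.28 (0.999). Without the low-count filter, edgeR called Nt5e in clusters 1, 2 and 7 (adjusted p = 8.33e-07, 3.02e-05 and 0.0404), where that fit called 2.64, 2.24 and 0.681% of all genes. Femur 3 was the lowest library in clusters 0 to 3 and Mandible 1 the highest, and the sites overlapped in CPM in all 4. In cluster 3, Mandible 2 and Mandible 3 lay within the range of the femur libraries, so the change there leaned on Mandible 1. The share of Nt5e-positive cells did not overlap in cluster 1 (6.65 to 18.3% at the femur and 20.3 to 25.4% at the mandible) or in cluster 2 (15.3 to 29.8% and 30.1 to 43.6%). Cluster 6 alone had a negative value, -0.32 ± 0.45 (edgeR adjusted p = 1.000), and in cluster 8 Nt5e failed the filter, with 57.6, 0 and 44.4 CPM at the femur and 78.1, 24.8 and 35.7 CPM at the mandible. Over all cells the change was 0.65 ± 0.35 (edgeR adjusted p = 0.624), and without Mandible 1 it fell to 0.17 ± 0.26.

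Cluster 5, the monocyte cluster, was the only other cluster in which the Nt5e levels of the sites in CPM did not overlap, while its shares of positive cells did overlap (6.02 to 11.2% and 10.8 to 14.6%). The values were 18.8, 13.6 and 13.97 CPM in Femur 1 to Femur 3 and 33.5, 24.0 and 25.3 CPM in Mandible 1 to Mandible 3, and the change of 0.80 ± 0.18 on the log2 scale did not pass with edgeR (adjusted p = 0.594) and passed narrowly with DESeq2 (adjusted p = 0.0499), which called 0.451% of all genes there. Of all genes tested in cluster 5, 11.6% had libraries that did not overlap between the sites, and in cluster 4 the share was 16%. Of the 1838 Nt5e UMIs of cluster 5, 1742 were in neutrophil-labelled cells, where 27.9% of cells were positive and the levels of 52.4, 30.0 and 20.3 CPM at the femur and 86.8, 49.7 and 48.8 CPM at the mandible overlapped. The 3734 monocyte-labelled cells held 62 Nt5e UMIs, at 1.02, 0.887 and 1.21 CPM at the femur and 1.95, 3.38 and 1.62 CPM at the mandible, which did not overlap, and 1.34% of them were positive, near the share in B cell-labelled cells. Nt5e in the monocyte cluster was therefore measured almost wholly in cells whose label is neutrophil. Those neutrophil-labelled cells made up 37.5 ± 10.7% of cluster 5 at the femur and 29.5 ± 4.87% at the mandible. They had a median of 15445 UMIs per cell against 9328.5 in the monocyte-labelled cells, and the part of depth was not tested. The neutrophil label may not name the type of the cells that carry it. Finer cluster 12, with 825 of the UMIs and 62.5% neutrophil-labelled, was led by Cd36, Cd300e, Fabp4 and Ace. Finer cluster 15, with 188 UMIs and 44.6% neutrophil-labelled, was led by Fcna, Cd5l, Mertk and the macrophage list genes Mrc1 and Vcam1. Its Nt5e levels overlapped, at 36.0 ± 16.5 and 41.4 ± 13.6 CPM. Finer clusters 16 and 17, with 66 and 69 UMIs, had no overlap (7.72 ± 4.81 and 20.9 ± 5.77 CPM in 16, 6.65 ± 1.47 and 10.6 ± 2.39 CPM in 17).

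Entpd1, the step before Nt5e, was the most abundant of the 5 transcripts, with 142437 UMIs and at least 1 UMI in 46870 cells (67.2%). It was highest in cluster 1, where 83.0% of cells were positive, at 862, 619 and 522 CPM in Femur 1 to Femur 3 and 538, 434 and 418 CPM in Mandible 1 to Mandible 3. Cluster 1 was the highest cluster in 6 of 6 libraries. Means of 373 ± 114 CPM in cluster 2, 328 ± 67.1 in cluster 7, 218 ± 60.0 in cluster 3, 135 ± 22.0 in cluster 0, 133 ± 40.0 in cluster 5, 126 ± 81.9 in cluster 8, 75.6 ± 24.8 in cluster 6 and 59.6 ± 5.21 in cluster 4 followed, with overlapping ranges between all neighbours. Its peak therefore fell in a different cluster from that of Nt5e. In 6 of 6 libraries cluster 1 exceeded cluster 2 and cluster 2 exceeded cluster 3, the reverse of the order for Nt5e. Inside cluster 1, finer cluster 0 with its Ifit genes had 705 CPM (521 to 1111) and finer cluster 1 had 443 CPM (324 to 652), also the reverse of Nt5e, with overlapping ranges. The genes most like Entpd1 over the 54 sums were Csf3r (r = 0.966), the G-CSF receptor and a marker used here for mature neutrophils, Sorl1 (0.962), a sorting receptor, and Sh2d3c (0.956), an adaptor protein.

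All 9 fitted site differences of Entpd1 over the 6 libraries were negative, meaning lower at the mandible, although that of cluster 6 turned positive without Femur 2, and none passed the edgeR test, with 1 unadjusted p under 0.05. As the clusters share these libraries, the 9 values are not independent. In cluster 5 the levels were 200, 152 and 124 CPM in Femur 1 to Femur 3 and 131, 86.0 and 103 CPM in Mandible 1 to Mandible 3, which overlapped, and the change was -0.60 ± 0.18 on the log2 scale (edgeR adjusted p = 0.606). In cluster 8 the sites did not overlap, with 287, 107 and 120 CPM at the femur and 101, 76.3 and 62.5 CPM at the mandible, a change of -0.995 ± 0.463 (edgeR adjusted p = 1.000) that was -0.52 ± 0.51 without Femur 1. In cluster 8, 4.6% of all tested genes had libraries that did not overlap. The other 7 changes ran from -0.41 ± 0.22 in cluster 2 to -0.13 ± 0.07 in cluster 4, and over all cells the change was -0.51 ± 0.23 (edgeR adjusted p = 0.537). Within cluster 5, macrophage-labelled cells had the direction opposite to the whole, 293 ± 93.1 CPM at the femur and 410 ± 81.8 at the mandible (SD, n = 3), without overlap, over 482 cells. Finer cluster 15, led by macrophage genes such as Mrc1 and Vcam1, did not, with 332 ± 74.2 and 293 ± 53.2 CPM, with overlap. Finer clusters 16 (47.9 ± 13.1 and 27.8 ± 3.83 CPM) and 17 (43.8 ± 5.85 and 23.0 ± 4.07 CPM) were lower at the mandible without overlap. Monocyte- and neutrophil-labelled cells and finer clusters 8 and 12 were lower there with overlap.

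Ada, which removes adenosine, was distributed unlike Nt5e, with r = -0.554 over the 54 sums, and unlike Entpd1, with r = -0.662. It was highest in cluster 4, at 42.3, 34.1 and 40.3 CPM in Femur 1 to Femur 3 and 33.9, 33.9 and 35.01 CPM in Mandible 1 to Mandible 3, and next in cluster 0, at 27.2, 19.3 and 26.5 CPM and 15.9, 22.2 and 17.5 CPM. The 6 libraries of cluster 4 lay above the 6 of cluster 0, so these 2 neighbours were apart. These clusters held 47.4 and 40.5% of the 13733 Ada UMIs, and 50.7% of the cells of cluster 4 were positive. Cluster 0 also held the largest share of the Nt5e UMIs. The mean fell from 17.1 ± 8.46 CPM in cluster 8, 10.1 ± 6.41 in cluster 7, 9.03 ± 3.14 in cluster 5 and 8.43 ± 3.70 in cluster 6 to 3.79 ± 1.51 in cluster 1, 3.10 ± 1.25 in cluster 2 and 3.10 ± 0.872 in cluster 3, where Nt5e peaked. The 4 finer clusters with most of their cells in cluster 0 had Ada lowest where Nt5e was highest, with Ada at 24.3, 32.4, 20.2 and 10.2 CPM in finer clusters 11, 4, 7 and 3, in which Nt5e went from 10.1 to 129 CPM. The genes most like Ada were Lta4h (r = 0.900), a leukotriene enzyme, Orm1 (0.899), an acute-phase protein, and Tmem216 (0.890), a membrane protein of the cilium base.

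None of the 6 fitted site differences of Ada passed the edgeR test, and 0 had an unadjusted p under 0.05. The change was -0.16 ± 0.10 in cluster 4 (edgeR adjusted p = 0.543) and -0.35 ± 0.21 in cluster 0 (0.873). In cluster 3 the levels did not overlap, at 3.99, 3.51 and 3.59 CPM at the femur and 1.495, 3.05 and 2.97 CPM at the mandible, but they rested on 189 UMIs and the change was -0.58 ± 0.34 (edgeR adjusted p = 0.999), or -0.28 ± 0.33 without Mandible 1. Of all genes tested in cluster 3, 7.71% had libraries that did not overlap. The changes of 0.61 ± 0.36 in cluster 1, 0.31 ± 0.43 in cluster 2 and -0.28 ± 0.40 in cluster 5 were less than 2 SE from 0, and that of cluster 2 changed sign without Mandible 2 and that of cluster 5 without Femur 3.

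The 2 receptors were sparse, and most of their UMIs were in cluster 5. Of 1228 Adora2b UMIs, 96.1% were in cluster 5, where 965 of 7354 cells (13.1%) were positive. Clusters 2 and 7 had no Adora2b UMI in 9629 and 890 cells, which in single libraries allows a share of up to 0.101 to 0.309% in cluster 2 and 1.08 to 3.19% in cluster 7. These limits are for cells with a UMI, not for cells that express the gene. Of 626 Adora2a UMIs, 82.6% were in cluster 5, where 5.83% of cells were positive, and 25 were in the 1009 cells of cluster 6. Per UMI, Adora2a stood at 5.96 ± 2.14 CPM in cluster 5 and 3.43 ± 3.40 CPM in cluster 6 (SD, n = 6), with overlapping ranges and cluster 5 higher in 5 of 6 libraries, and 23 of the 25 UMIs of cluster 6 were in B cell-labelled cells. The background share was 0.104% for Adora2a and 0.0831% for Adora2b in cluster 0, whose cells had a higher median depth, 11168 UMIs against 10085 in cluster 5.

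Adora2b in cluster 5 stood at 10.0, 12.9 and 10.2 CPM in Femur 1 to Femur 3 and at 15.8, 15.3 and 15.9 CPM in Mandible 1 to Mandible 3. The sites did not overlap, and the log2 fold change of 0.46 ± 0.16 did not pass the edgeR test (adjusted p = 0.626). The share of positive cells was 10.5 ± 2.23% at the femur and 15.8 ± 2.01% at the mandible (SD, n = 3), also without overlap. Each positive cell had 1.23 ± 0.0187 and 1.22 ± 0.0269 UMIs. As 81.9% of the positive cells held exactly 1 UMI, the lowest possible, this count cannot tell whether RNA per cell differed. Among monocyte-labelled cells the levels were 18.3 ± 2.88 and 25.7 ± 2.53 CPM, without overlap, and among neutrophil-labelled cells they were 6.35 ± 1.41 and 7.38 ± 0.683 CPM, with overlap. Of the 3 cell cycle phases, G2M had the largest gap in CPM, with 13.1 ± 1.19 CPM at the femur and 26.2 ± 3.49 at the mandible, and cells of this phase made up 6.60% of cluster 5 at the femur and 13.8% at the mandible. Finer cluster 17, led by Gria3, Nrg1, Ass1 and Itga1, had the highest Adora2b, with 42.2% of 353 cells positive and 26.5 CPM (15.3 to 33.9), and it took 2.14 ± 0.531% of cluster 5 at the femur and 7.42 ± 3.91% at the mandible. In finer cluster 17 alone the levels were 20.3 ± 4.77 and 32.7 ± 1.24 CPM and in finer cluster 8, the largest of the monocyte clusters, 14.3 ± 0.285 and 17.9 ± 1.58 CPM, both without overlap. The sites overlapped in finer cluster 12 (6.79 ± 3.93 and 7.13 ± 1.57 CPM), in finer cluster 16 (12.3 ± 8.45 and 9.98 ± 4.44 CPM), in finer cluster 15, which held 2 UMIs, and in macrophage-labelled cells (4.33 ± 3.47 and 0.654 ± 1.13 CPM, from 9 UMIs). The genes most like Adora2b were the scavenger receptor gene Msr1 (r = 0.971), Stxbp6 (0.963), whose product binds the vesicle fusion machinery, and Mcub (0.958), a subunit of the mitochondrial calcium uniporter.

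The fitted value of Adora2a had the other direction in the same cells. In cluster 5 it stood at 8.24, 8.80 and 4.52 CPM in Femur 1 to Femur 3 and at 5.88, 3.41 and 4.94 CPM in Mandible 1 to Mandible 3, with overlap, and the change was -0.62 ± 0.28 on the log2 scale (edgeR adjusted p = 0.710). In monocyte-labelled cells the levels were 10.1 ± 1.75 CPM at the femur and 6.15 ± 1.73 at the mandible, and did not overlap. Pooled over libraries, 10.3% of the 174 dendritic cell-labelled cells of cluster 5 were positive, at 14.4 CPM. The monocyte-labelled cells pooled in the same way had 6.88% and 8.18 CPM. Among finer clusters, Adora2a was highest in finer cluster 16, at 11.6 CPM (2.36 to 22.5), followed by finer cluster 12, led by Cd36, Cd300e, Fabp4 and Ace, at 7.94 CPM (4.71 to 10.8), with overlapping ranges. Finer cluster 16 was mixed, led by the basophil and mast cell genes Mcpt8, Prg2, Prss34 and Cpa3 beside Angpt1, Gzma, Car2 and Siglech. Its most common label, stem cells, covered 20.2% of its 361 cells. Adora2a was found in only 1 of the 353 cells of finer cluster 17, where Adora2b peaked. The genes most like Adora2a were Capn2 (r = 0.887), a calpain protease, Lrrc8b (0.873), an anion channel subunit, and Fyn (0.861), a Src family kinase.

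Other cell types in cluster 5 differed between the sites as well, and their part in these values was not tested. The 6 ameloblast genes summed to 0.328 CPM at the femur (0.149 to 0.550) and 474 CPM at the mandible (16.03 to 1322), with 6 of 6 higher, and Dspp and Dmp1 together to 0 and 2.33 CPM (0.181 to 6.62). The 7 B cell genes summed to 28.1 CPM (21.1 to 32.3) and 55.3 CPM (37.9 to 78.2), with 6 of 7 higher at the mandible, and the 6 dendritic cell genes to 908 CPM (738 to 1241) and 482 CPM (346 to 620), lower in sum although 4 of 6 genes were higher at the mandible. H2-Ab1, which is in the dendritic cell list, was also among the genes that led finer cluster 8, whose cells were 67.9% monocyte-labelled. The dendritic cell sum therefore does not mark dendritic cells alone. The 6 macrophage genes summed to 1575 CPM (632 to 2963) and 797 CPM (474 to 1152), with 0 of 6 higher at the mandible, the 9 bone or stromal genes to 129 CPM (85.1 to 156) and 521 CPM (94.3 to 738), with 6 of 9 higher, and the 6 erythroid genes to 458 CPM (174 to 689) and 1205 CPM (661 to 1515), with 4 of 6 higher. The 7 T or NK cell genes summed to 23.96 CPM (18.4 to 33.7) and 46.5 CPM (10.03 to 72.9), with 7 of 7 higher, and the 8 basophil, mast cell or eosinophil genes to 108 CPM (55.7 to 201) and 307 CPM (65.1 to 435), with 6 of 8 higher. These 5 lists overlapped between the sites. Monocyte genes, at 3124 CPM (2445 to 3551) and 3666 CPM (3372 to 4050), overlapped. Without cells carrying a tooth, bone or stromal UMI, the log2 fold changes in cluster 5 were 0.71 ± 0.15 for Nt5e, -0.73 ± 0.19 for Entpd1, -0.60 ± 0.28 for Adora2a and 0.45 ± 0.16 for Adora2b.

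**Figure D4:**
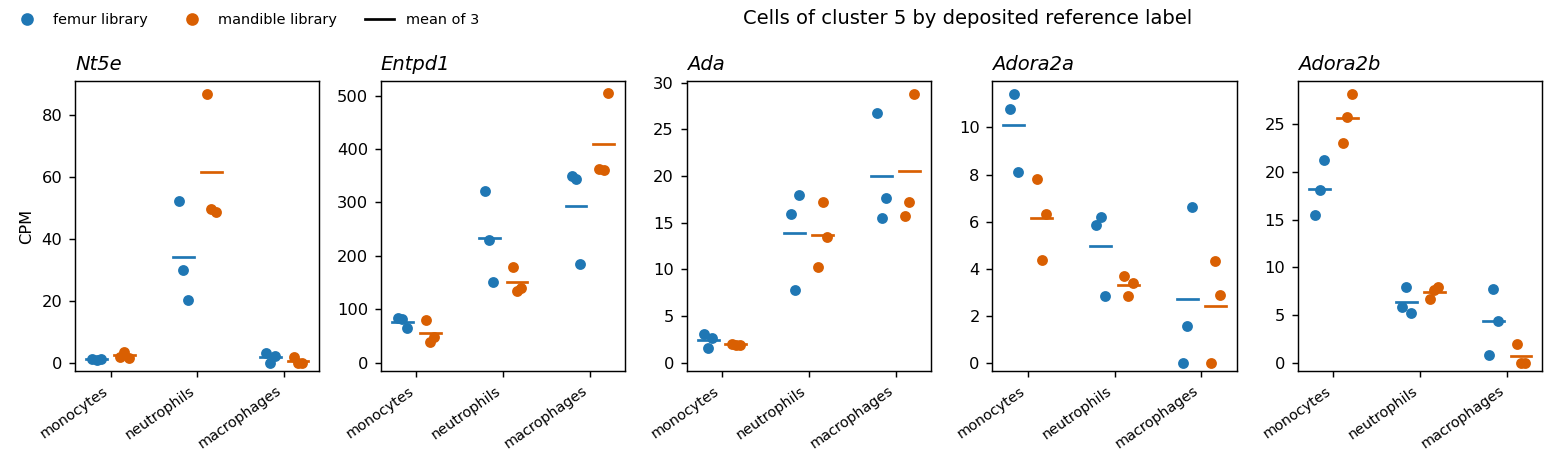
Level in CPM of the 5 genes in cells of cluster 5 by deposited reference label (monocytes, neutrophils, macrophages), with 1 point per library, femur in blue and mandible in orange, and bars at the mean of 3. Nt5e lies in the neutrophil-labelled cells, and among the labels shown Adora2a and Adora2b are highest in the monocyte-labelled cells.

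Beside Nt5e in cluster 4, the 5 genes gave 24 fitted pairs of a gene and a cluster, of which 0 passed the edgeR test, 9 were positive and 15 negative. Of the 24 pairs, 6 had an unadjusted p under 0.05, against 8.42% of all tests over the 9 clusters, and 1 passed with DESeq2 (Nt5e in cluster 5). The libraries of the sites did not overlap in 4 of them, Nt5e and Adora2b in cluster 5, Ada in cluster 3 and Entpd1 in cluster 8. Over all genes tested, that share was 11.1% in cluster 0, 21.8% in cluster 1, 14.9% in cluster 2, 9.24% in cluster 6 and 10.7% in cluster 7, beside the values given above for the other clusters, so 4 of 24 was not far from the background. Over all cells, Adora2b had 1.03 ± 0.33 (edgeR adjusted p = 0.409), Ada -0.36 ± 0.27 (0.749) and Adora2a 0.06 ± 0.39 (0.978).

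**Figure D5:**
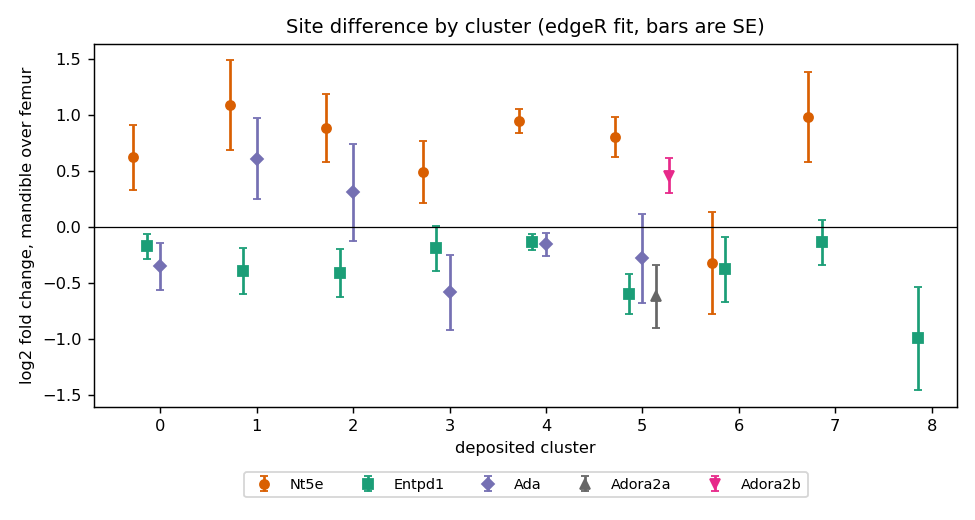
Log2 fold change (mandible over femur, linear axis, bars are SE of the edgeR fit) of each gene in each deposited cluster where it passed the low-count filter. Nt5e lies above 0 in 7 of 8 clusters and Entpd1 below 0 in all 9 with the 6 libraries, although its value in cluster 6 is above 0 without Femur 2. The clusters share the same 6 libraries and are not independent.

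Entpd1 and Nt5e, enzymes of consecutive steps, were often found in the same cell, and Nt5e and Ada less often. Ada itself was the rarer transcript, found in 9329 cells against 46870 for Entpd1. An Entpd1 UMI was present in 74.4 ± 5.79% of Nt5e-positive and 63.9 ± 8.22% of Nt5e-negative cells (SD over 6 libraries), higher in 6 of 6 libraries. Nt5e-positive cells were the deeper ones, with library medians of 7974 to 11254 UMIs against 6368 to 7891, and the part of depth in this difference was not tested. In cluster 4 the shares were 75.9 ± 6.87% and 53.6 ± 4.21%, and in cluster 5, where the Nt5e-positive cells were mostly neutrophil-labelled, 82.1 ± 5.10% and 46.5 ± 7.26%. Ada was found in 12.3 ± 4.19% of Nt5e-positive and 12.9 ± 2.81% of Nt5e-negative cells, higher in 2 of 6 libraries, although the positive cells were deeper. In cluster 0 the Ada shares were 17.5 ± 4.90% and 21.6 ± 3.51%, higher in the Nt5e-positive cells in 1 of 6 libraries. In cluster 5 they were 17.8 ± 8.49% and 6.84 ± 2.22%, in cluster 7 they were 13.1 ± 8.85% and 3.86 ± 2.41%, and in cluster 1 they were 2.68 ± 1.09% and 1.62 ± 0.475%, each higher in the Nt5e-positive cells in 6 of 6 libraries. In cluster 4, where Ada was highest, they were 52.6 ± 8.91% and 48.9 ± 3.36%, higher in 4 of 6. The mean Ada share was also higher in the Nt5e-positive cells of clusters 2, 3, 6 and 8, in 4, 5, 3 and 5 libraries. The library medians of UMIs per cell were higher in the Nt5e-positive cells of clusters 1 to 7 too. In cluster 0 they were lower in Femur 2 (11609.5 against 11957) and Mandible 1 (11061.5 against 11679) and higher in the other libraries. In all, 12648 cells carried both Entpd1 and Nt5e, 2136 carried Nt5e and Ada, and 105 carried Nt5e and Adora2b.

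The wider pathway was followed with a list of 50 genes for adenosine, ATP and purine handling, which includes the 5 genes above. Between 10 (cluster 8) and 39 (cluster 5) of them passed the low-count filter in a cluster. In cluster 4, 34 were tested, and apart from Nt5e, which chose the comparison, 0 passed the edgeR test. In each other cluster and over all cells, 0 passed in either direction with edgeR. The lowest adjusted values elsewhere were 0.136 for P2ry2, a receptor for ATP and UTP, in cluster 2 and 0.167 for P2ry12, an ADP receptor, in cluster 1. An unadjusted p under 0.05 was reached by 8 of 27 list genes in cluster 2, where 1176 of all 9618 genes tested reached it. It was reached by 6 of 29 in cluster 1 (1451 of 10687), 6 of 39 in cluster 5 (979 of 13765) and, beside Nt5e, by 3 of 33 in cluster 4 (1597 of 12265). It was reached by 2 list genes each in clusters 0, 3, 6 and 7, of 32, 27, 22 and 18 tested (837 of 12285, 406 of 9270, 330 of 8161 and 316 of 5939 over all genes), and by 1 of 10 in cluster 8 (28 of 2543). DESeq2 called 4 pairs of a list gene and a cluster beside Nt5e in cluster 4, namely P2ry12 in clusters 1 and 2, Entpd3, another ATP-cleaving ectoenzyme, in cluster 1 and Nt5e in cluster 5, and it called 0.642% of all tests over the 9 clusters. The median log2 fold change of the list was 0.05 in clusters 1, 2 and 4 (0.02 in cluster 4 without Nt5e), -0.02 in cluster 0, -0.04 in cluster 6, -0.10 in cluster 3, -0.14 in clusters 5 and 7 and 0.23 in cluster 8, against medians between -0.01 and 0.02 over all genes tested. In cluster 4, beside Nt5e, 7 of 33 list genes had libraries that did not overlap (21.2%, against 16% of all genes tested there), among them Pnp2, a purine nucleoside phosphorylase, with 0.18 ± 0.13, and Slc28a2, a sodium-coupled nucleoside transporter, with -0.15 ± 0.09 (edgeR adjusted p = 0.559 and 0.504). In cluster 5 it was 5 of 39 (12.8%, against 11.6% of all genes tested there), with Slc28a2 at -0.35 ± 0.20 (edgeR adjusted p = 0.747).

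By role, the most abundant list gene over all cells was Pde4d among the cyclic AMP genes, a phosphodiesterase that degrades the messenger of both receptors, at 490 CPM (mean of 6 libraries). Entpd1, at 200 CPM, led the ectoenzymes that make AMP. Among enzymes that turn AMP into adenosine outside the cell, the prostatic acid phosphatase gene Acpp, at 137 CPM, stood above Nt5e, at 61.5 CPM. Nt5c2 (134 CPM), a cytosolic nucleotidase, led the intracellular AMP genes, Bst1 (108 CPM), an ADP-ribosyl cyclase, the NAD-consuming ectoenzymes, and Pnp (89.8 CPM), which cleaves inosine, the genes of adenosine removal. Slc28a2 (30.3 CPM) led the nucleoside transporters, P2rx4 (13.9 CPM), an ATP-gated channel, the nucleotide receptors, Panx1 (2.36 CPM) the ATP release channels, and Adora2b (1.98 CPM) the adenosine receptors.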

How the data were processed

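CD11b+ marrow cells of 3 femur and 3 mandible libraries were measured by 10x 3′ RNA sequencing. The matrices the authors deposited hold raw counts of UMIs per gene and barcode on mm10, made with CellRanger (7.0.1 in the methods, 7.1.0 in the matrix header). The metadata table the authors deposited gives cluster numbers, phases and SingleR labels from R 4.1.0 and Seurat, and the mitochondrial share in percent. The authors had kept cells with 600 to 6000 genes and at most 20 percent mitochondrial UMIs. No column of other samples was found (0). The deposited table of cluster markers, with fold changes and p-values, was not used.

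UMI counts were added up by library and cluster over the 69776 kept cells and compared with the edgeR 4.0.16 quasi-likelihood test (R 4.3.3; TMM, default low-count filter, no covariate, Benjamini-Hochberg over all genes, FDR 0.05). The library was the unit throughout, and an exact test of 3 against 3 cannot go below 0.10. Shares of positive cells carry no test. Cell sums and plots used Python 3.11.15, numpy 2.4.6, pandas 2.3.3, scipy 1.17.1 and matplotlib 3.10.9. The scripts were tested on simulated data. Scrublet (scanpy 1.11.5) set no usable threshold in 5 of 6 libraries, so no doublets were removed. The 5 genes, the 50-gene list and the marker lists were chosen with earlier results of these data known. Named genes were the 5 members, list genes that passed or that led by change among non-overlapping genes of at least 5 CPM in clusters 4 and 5, the most abundant gene of each role, and the most correlated genes. P2ry2, P2ry12 and Entpd3, with the lowest adjusted p-values of the list or a DESeq2 call, were named after their values were seen.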

Additional observations from a re-analysis of the deposited data

Results flagged for a closer look

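Among the 50 adenosine and purine genes, 2 had libraries that moved fully apart in opposite directions in 2 clusters, 5.41% of the 37 tested in at least 2 clusters, against 2.70% of all 12871 such genes. Bst1, an ADP-ribosyl cyclase, had a log2 fold change, mandible over femur, of 0.32 ± 0.12 (SE) in cluster 0 and of -0.80 ± 0.38 in cluster 8. Adk, adenosine kinase, had 0.50 ± 0.22 in cluster 2 and -0.66 ± 0.27 in cluster 6. In both cases the difference was not tested.

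The 4315 barcodes that the authors' filters left out also held UMIs of all 5 genes. Nt5e had 1253 UMIs there, at 18.6 to 110 CPM over the libraries, and Entpd1 had 5224, at 105 to 326 CPM. Ada had 716 UMIs (11.3 to 31.4 CPM), Adora2a had 54 (0.609 to 4.27 CPM) and Adora2b had 82 (0.914 to 4.77 CPM). Groups of 3 libraries were too small for a search for single outlying libraries.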

How the results depend on the processing

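Counts of calls moved with the settings far more than fold changes did. Of the 5 genes, 1 pair of a gene and a cluster passed with edgeR, which is Nt5e in cluster 4, by which the gene was chosen, and so no test of it. This count became 2 with DESeq2, 4 without the low-count filter (Nt5e in clusters 1, 2, 4 and 7) and 0 to 1 when 1 library was left out (1 only without Mandible 1). For the 50-gene list the count of 1, the same pair, became 5 with DESeq2, 15 without the filter and 0 to 1 with 1 library left out. Over all genes and clusters the count of 24 became 761 with DESeq2, 1907 without the filter and 6 to 127 with 1 library left out. Without cells carrying a tooth, bone or stromal UMI the 3 counts were 0, 0 and 2, and without the cells of the highest doublet scores, an alternative chosen after seeing the data, the first 2 were 0 and 0. Over all genes, the fit without those cells called 1, 7, 5, 1, 2, 0, 0, 5 and 0 in clusters 0 to 8. Removal of called doublets was not run, as the caller marked 0% of cells in 4 libraries.

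Femur 2 and Mandible 1 share library number 6, and Femur 3 and Mandible 2 share number 7, but the labels do not say what the number marks. A replicate block on it in these 4 libraries gave 6, 30 and 4563 calls for the 5 genes, the list and all genes, against 0, 0 and 5 in the same 4 libraries without the block, a comparison added after seeing the data. A replicate block on the title number gave 0 and 0 calls for the 5 genes and the list and 24 over all genes. Deviations of same-numbered samples correlated at -0.62 to 0.34 by title number (14 of 30 over 0.1) and -0.32 to 0.66 by library number (17 of 20 over 0.1, with both pairs at 0.38 to 0.66 in clusters 0 to 3). With 2 pairs and no label for what the number marks, the pairing was not used for the values reported. With the library-number block, Nt5e passed in clusters 0, 1, 2, 3 and 7 besides cluster 4.

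The log2 fold change of Nt5e in cluster 4 stayed at 0.90 to 0.99 with 1 library left out and was 0.92 and 0.95 with the blocks, 0.86 without the highest doublet scores and 0.76 without tooth, bone or stromal cells. As a log2 ratio of mean CPM it was 0.92, against 3.37 in G1, 0.73 in S, 1.06 in finer cluster 6, 0.20 in finer cluster 10 and 0.62 in finer cluster 11. The G1 value is unstable, as it came from few cells with Nt5e UMIs in a single femur library. Changes that had not been called turned sign in 10 cases, and the cause was not tested. Nt5e in cluster 6 came to 0.0073 with the library-number block. With 1 library left out, Entpd1 in cluster 6 ran from -0.564 to 0.0815 (positive without Femur 2), Ada in cluster 2 from -0.125 (without Mandible 2) to 0.693 and Ada in cluster 5 from -0.594 to 0.185 (positive without Femur 3). Ada in cluster 2 was -0.0826 without the highest doublet scores. Adora2a over all cells ran from -0.205 to 0.489 (negative without Femur 1, Femur 3 or Mandible 3), and was -0.015 with the library-number block and -0.146 in the same 4 libraries without it. Of 45 ranks of a gene among clusters, 29 were kept in femur libraries alone, and the highest cluster of each gene stayed the same. Adora2a and Adora2b, with 626 and 1228 UMIs, passed the low-count filter in cluster 5 and over all cells only.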
